A study of Homo sapiens with 9 samples.

Results

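PCDH7 and 8 other cadherin genes (PCDH1, CDH1, CDH2, CDH3, CDH11, CDH17, DSC2 and DSG2) were followed through 23 probe sets, every one annotated to a single one of these symbols, out of 19777 genes with such a probe set. The genes were picked with their differences between these lines already known, so the differences given for them are descriptions and carry no test. The arrays profiled total RNA of cultured cells from 3 groups with 3 biological replicates each. The parent, SW480/EGFP, is the human colorectal carcinoma line SW480 expressing EGFP and was not cloned. SCP51, classed as highly metastatic, and SCP58, classed as poorly metastatic, were each grown from a single cell of that parent, so all 3 groups carry EGFP and each metastatic class is 1 clone. Metastatic potential was scored after surgical implantation at the orthotopic site in mice, but the RNA came from cells in RPMI 1640 medium with serum, without added treatment. The questions here were in which of these lines cadherin genes differed and whether the genes around cadherin adhesion differed with them.

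Cadherins are calcium-dependent adhesion proteins that bind the same or related cadherins on neighbouring cells. Classical cadherins are tied to actin through catenins, desmosomal cadherins are tied to keratin filaments through plakoglobin, plakophilins and desmoplakin, and protocadherins have other cytoplasmic tails that bind signalling and actin-regulating proteins. In colorectal epithelium E-cadherin, LI-cadherin and the desmosomal pair DSC2 and DSG2 are the best known members.

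In short, PCDH7 was high in SCP51 and in the parent and low in SCP58. DSC2, a desmosomal cadherin, was lowest in SCP51, and DSG2 had the same order of lines with far smaller differences. P-cadherin (CDH3) was slightly higher in SCP51 than in the other lines. E-cadherin (CDH1) overlapped between all 3 lines, and no N-cadherin (CDH2) probe set lay above the array median on more than 1 array.

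The upstream sequences of 3 members are shown. PCDH7 and DSC2 had the largest differences between SCP51 and SCP58, in opposite directions, and DSG2, with small differences, is shown as the desmosomal partner of DSC2. They come from RefSeq (GRCh38.p14), run from 250 bases before to 50 bases after the annotated start, and are written along the gene's strand. Capitals mark the E-box CACCTG on either strand (CAGGTG on the other), the element bound by the repressors SNAI1, SNAI2 and ZEB1 in the E-cadherin promoter. PCDH7 lies on the plus strand at chr4:30720119-30720418. The DSC2 promoter shown lies on the minus strand at chr18:31102372-31102671, and that of DSG2 on the plus strand at chr18:31497927-31498226.
PCDH7: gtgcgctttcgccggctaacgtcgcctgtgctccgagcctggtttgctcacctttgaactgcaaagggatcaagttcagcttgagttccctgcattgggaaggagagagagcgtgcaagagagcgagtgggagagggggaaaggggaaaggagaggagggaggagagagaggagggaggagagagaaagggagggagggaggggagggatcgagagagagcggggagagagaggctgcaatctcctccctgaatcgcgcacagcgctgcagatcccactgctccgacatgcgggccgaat
DSC2: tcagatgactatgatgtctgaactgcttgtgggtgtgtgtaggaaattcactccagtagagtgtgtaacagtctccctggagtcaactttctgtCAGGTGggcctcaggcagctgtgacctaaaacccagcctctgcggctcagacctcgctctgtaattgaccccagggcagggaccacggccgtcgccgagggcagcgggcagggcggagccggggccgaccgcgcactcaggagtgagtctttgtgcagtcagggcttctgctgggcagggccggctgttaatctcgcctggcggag
DSG2: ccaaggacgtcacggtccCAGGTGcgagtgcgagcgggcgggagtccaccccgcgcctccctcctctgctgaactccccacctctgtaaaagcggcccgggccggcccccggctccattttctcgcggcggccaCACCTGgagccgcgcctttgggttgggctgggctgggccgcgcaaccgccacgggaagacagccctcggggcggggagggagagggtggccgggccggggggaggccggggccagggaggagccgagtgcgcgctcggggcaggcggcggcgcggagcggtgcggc
The PCDH7 window held no CACCTG and none of the wider pattern CANNTG, which 68.7% of 35116 RefSeq promoters of this length hold. It was unusual in composition: 66.0% of its bases on the gene's strand were G or A, against a median of 50.3%, and 1.18% of the promoters had at least that share. DSC2 held CACCTG once, 156 bases before the start, and DSG2 held it 2 times, 232 and 116 bases before the start. A second DSC2 promoter and both CDH2 promoters held none, and the PCDH1 promoter held 1, 81 bases before its start. Over all promoters, 20.6% held CACCTG at least once. Of the 9 genes, 5 had a promoter in the table, 7 promoters in all, and CDH1, CDH3, CDH11 and CDH17 had none used here. These matches are descriptions of the letters and were not set against binding.

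The arrays had median signals, in the deposited linear intensity units, between 41.2 and 44.3. One array stood apart: on SCP51 replicate 1, 332 of 54613 probe sets lay above the array median with at least 4 times the signal of every other array, against 0 on each of the other 8, and 1444 had at most 1/2 of every other where those exceeded 20, against 1 to 109. Across genes, it correlated with each other array at 0.891 to 0.911. Of the 9 markers of colorectal epithelium, 8 were measured and all but keratin 20 passed the filter; none was called by limma between lines (2, 2 and 0 at an unadjusted p under 0.05 for SCP51 against SCP58, SCP51 against the parent and SCP58 against the parent). Markers of fibroblasts, leukocytes and endothelium were measured for 3 of 9, 2 of 7 and 3 of 6 genes, without a call by limma (only 1 fibroblast gene had an unadjusted p under 0.05, in each SCP51 comparison). The brightest probe sets of all 9 fibroblast markers were summed, including those that failed the filter. The sums were 393 to 432 in SCP51, 481 to 517 in the parent and 419.7 to 483 in SCP58. All 6 neural markers were measured and none was called by limma (1, 1 and 0 at an unadjusted p under 0.05). Their sums were 4031 to 4202 in SCP51, 3494 to 3923 in the parent and 3473 to 3754 in SCP58. The sums of the other marker lists overlapped between all lines. The part of these signals in any cadherin difference was not tested.

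A probe set counted as measured when it lay above the median of its own array on at least 3 of the 9 arrays. Of the 23 probe sets, 12 passed and 8 never lay above the array median. Every gene but CDH2 kept at least 1, and its brightest probe set stood for the gene. Differences are in log2 units, as the first line named minus the second, with the standard error (SE) of a limma fit to all 9 arrays. Signals of different probe sets cannot be compared with each other, so levels are ordered only between lines.

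**Figure D1:**
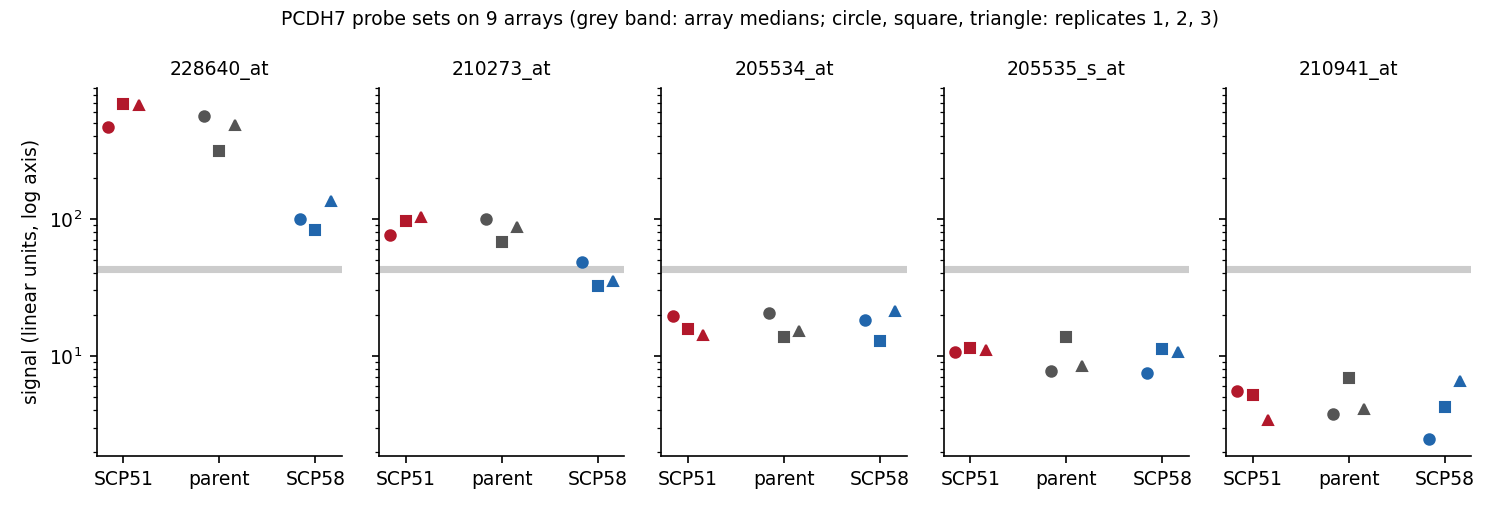
Signal of the 5 PCDH7 probe sets (linear units, log axis) on each of the 9 arrays, with symbols for replicate numbers and a grey band for the range of the array medians. The first pair of probe sets is low in SCP58, and the other 3 lie under the array medians in all lines.

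PCDH7, a large protocadherin whose tail can bind the phosphatase PP1 and the protein SET, was represented by 5 probe sets. On the brightest, 228640_at, the signal was 468, 686 and 675 in SCP51. In the parent it was 559, 310.1 and 482, and in SCP58 it was 99.9, 82.9 and 135. Every SCP58 array was below every array of the other lines, while SCP51 and the parent overlapped. The difference of SCP51 from SCP58 was 2.53 ± 0.27 (SE, n = 3 per group), a ratio of 5.79, and 6.56 without SCP51 replicate 1. SCP58 differed from the parent by -2.08 ± 0.27 and SCP51 from the parent by 0.46 ± 0.27. The last value was 0.21 without parent replicate 2 and 0.64 without SCP51 replicate 1.

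A second probe set, 210273_at, repeated the pattern at a lower signal. It read 76.5, 96.5 and 103 in SCP51, 100.4, 67.6 and 87.6 in the parent, and 48.0, 32.6 and 35.1 in SCP58. Again only SCP58 stood apart, and 2 of its 3 arrays were under the array median. The differences were 1.26 ± 0.20 for SCP51 against SCP58, 0.12 ± 0.20 for SCP51 against the parent and -1.15 ± 0.20 for SCP58 against the parent. Over the 9 arrays its log2 signal followed that of 228640_at with r = 0.96 (they share arrays and group means). With the mean of both probe sets in place of the brightest, PCDH7 differed by 1.90 between SCP51 and SCP58 and by -1.61 between SCP58 and the parent.

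The other 3 PCDH7 probe sets carried no such pattern. The signal of 205534_at was 12.9 to 21.3, that of 205535_s_at 7.53 to 13.6 and that of 210941_at 2.48 to 6.90 over all arrays. All were under the array median everywhere, and their differences of SCP51 from SCP58 were -0.06, 0.19 and 0.17. Which transcripts each probe set reads was not analysed here.

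PCDH1, a protocadherin of epithelial cell contacts, had probe sets that went different ways. On 203918_at, which stands for the gene, SCP51 read 65.1, 56.7 and 60.8, the parent 88.9, 83.5 and 81.1, and SCP58 88.5, 72.4 and 69.2. Each SCP51 array was below all arrays of the other lines, which overlapped each other. The differences were -0.33 ± 0.12 for SCP51 against SCP58, -0.48 ± 0.12 for SCP51 against the parent and -0.15 ± 0.12 for SCP58 against the parent. The second probe set, 215277_at, read 121, 20.5 and 116 in SCP51, 15.4, 15.3 and 14.0 in the parent and 18.4, 16.5 and 15.4 in SCP58. Only SCP51 replicates 1 and 3 were high, and SCP51 replicate 2 was near the other lines. Its differences, 1.98 and 2.15 for SCP51 against SCP58 and the parent, thus had the opposite sign to those of 203918_at; it did not pass the filter. On the whole array 41 probe sets were like it, with SCP51 replicates 1 and 3 over 50 and at least 4 times above all the rest, replicate 2 included; 1 and 7 did so with another SCP51 replicate low, and at most 2 with an array of another line low.

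**Figure D2:**
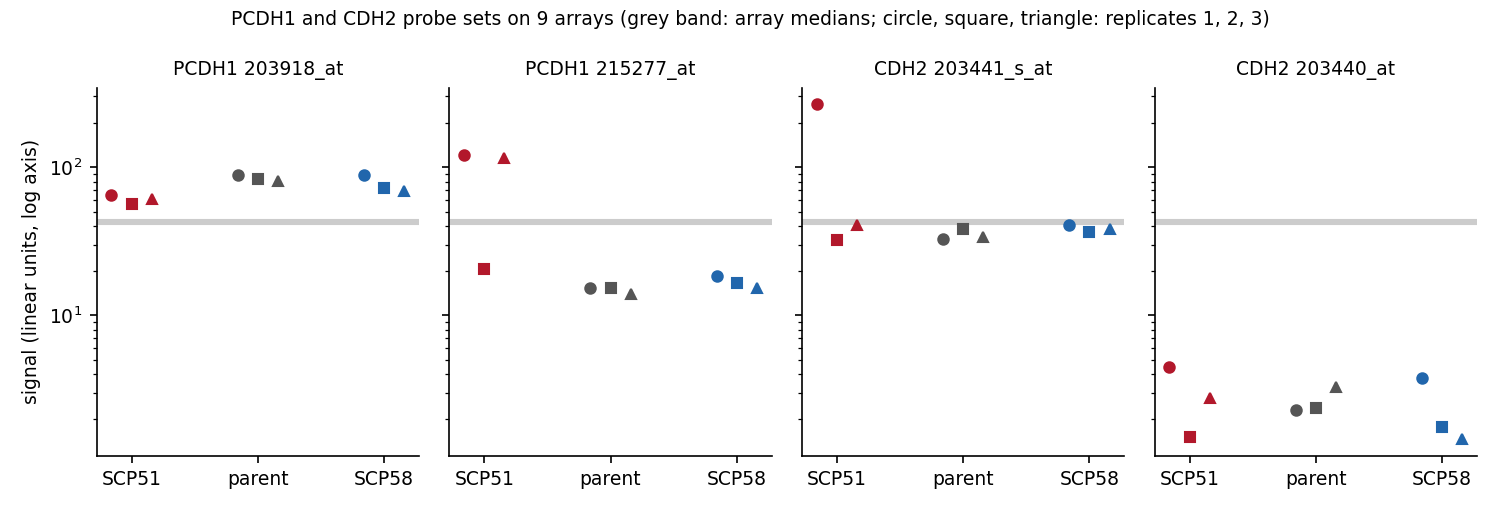
Signal of the PCDH1 and CDH2 probe sets (linear units, log axis) on the 9 arrays, with symbols for replicate numbers and a grey band for the array medians. PCDH1 215277_at is high on SCP51 replicates 1 and 3 only, at 121 and 116, and CDH2 203441_s_at on SCP51 replicate 1 only, at 266.

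CDH2, the N-cadherin of neural and mesenchymal cells, had a single value of note. Its probe set 203441_s_at read 266 on SCP51 replicate 1, but 32.2 and 40.9 on the other SCP51 arrays, 32.7, 38.3 and 33.8 in the parent and 40.6, 36.6 and 38.2 in SCP58. The mean difference of SCP51 from SCP58 was 0.87 with that array and -0.08 without it. The other probe set, 203440_at, read 1.47 to 4.52. CDH2 therefore had no measured level by the filter and entered no fit. CDH11, a type II cadherin of mesenchymal cells, was close to the array medians on 207172_s_at. It read 45.0, 38.1 and 44.3 in SCP51, 35.8, 44.1 and 34.5 in the parent and 37.2, 43.5 and 42.0 in SCP58, and the lines overlapped. The differences were 0.05 ± 0.14, 0.16 ± 0.14 and 0.11 ± 0.14 for SCP51 against SCP58, SCP51 against the parent and SCP58 against the parent. Its other 3 probe sets read 3.59 to 50.3 and did not pass the filter.

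**Figure D3:**
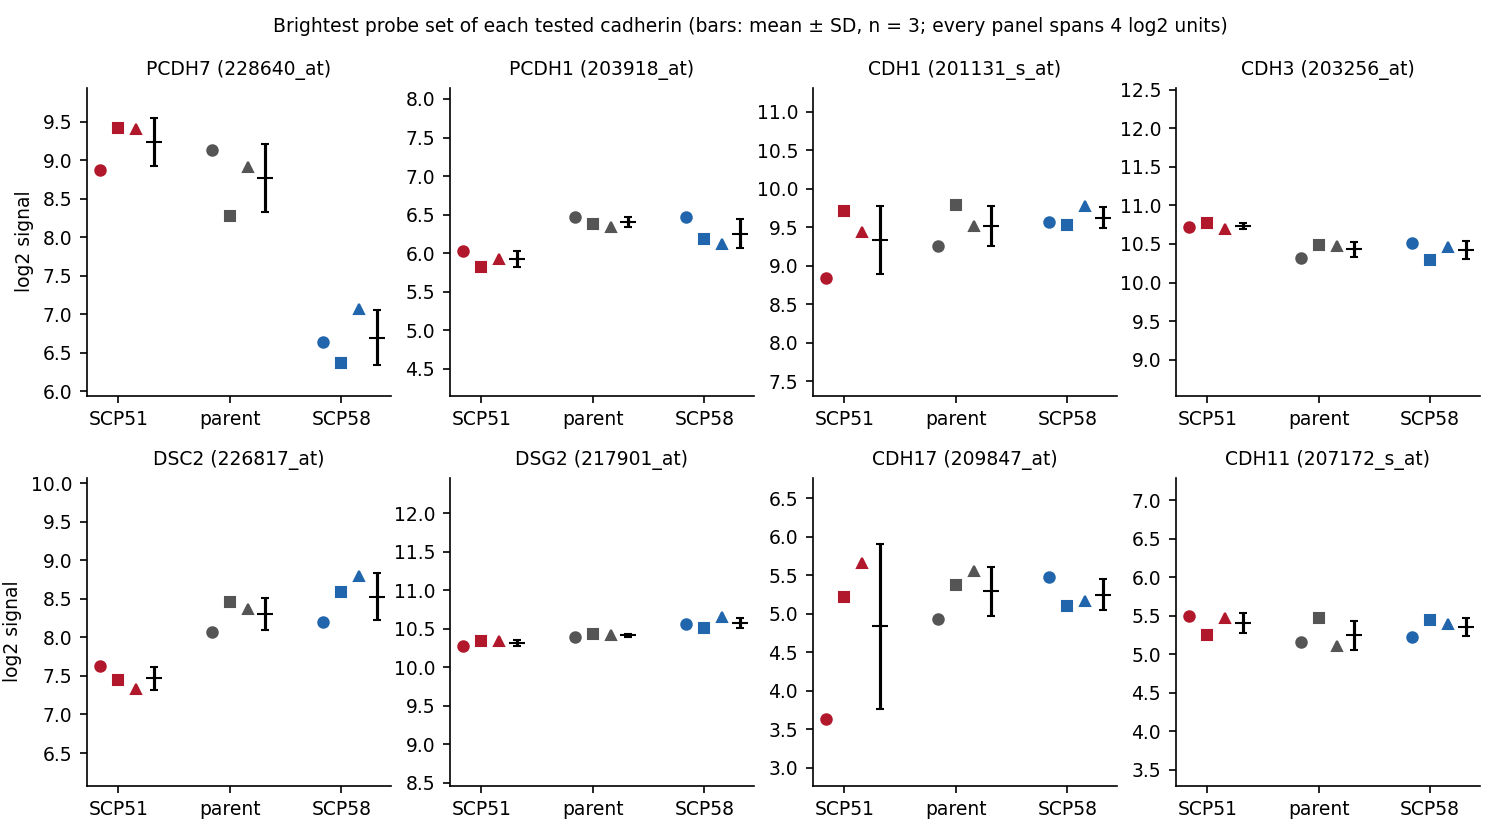
The log2 signal of the brightest probe set of each of the 8 measured cadherin genes on every array, with the mean ± SD of each line (n = 3) beside it; each panel has its own axis range and spans 4 log2 units. PCDH7 is low in SCP58, DSC2 and PCDH1 are low in SCP51, and CDH1 and CDH17 have their lowest value on SCP51 replicate 1.

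CDH1 encodes E-cadherin, the main adhesion protein of epithelial adherens junctions. Its brighter probe set, 201131_s_at, read 459, 837 and 695 in SCP51, 614, 882 and 730.0 in the parent and 758, 739.7 and 879 in SCP58. All 3 lines overlapped, and the lowest value was that of SCP51 replicate 1. The differences were -0.29 ± 0.23 for SCP51 against SCP58, -0.19 ± 0.23 for SCP51 against the parent and 0.11 ± 0.23 for SCP58 against the parent. Without SCP51 replicate 1 the first of these was -0.05 and the second was 0.06. The dimmer probe set, 201130_s_at, followed it with r = 0.90 over the 9 arrays, and its lowest signal, 61.8, was on the same array, against 99.8 to 176 elsewhere.

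CDH3, the P-cadherin of basal epithelial layers, is a classical cadherin encoded next to CDH1 on chromosome 16. On its only probe set it read 1695, 1745 and 1654 in SCP51, 1279, 1439 and 1429 in the parent, and 1463, 1255 and 1412 in SCP58. SCP51 was above both other lines on every array, and those overlapped. The differences were small: 0.31 ± 0.10 against SCP58 and 0.30 ± 0.10 against the parent, and 0.37 in both after quantile normalization. SCP58 and the parent differed by -0.01 ± 0.10.

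CDH17, the LI-cadherin of intestinal epithelium, was near the array median, which it exceeded on 3 arrays. It read 12.4, 37.2 and 50.7 in SCP51, 30.5, 41.5 and 47.1 in the parent, and 44.5, 34.2 and 35.9 in SCP58. The lines overlapped, and SCP51 replicate 1 was far below all other arrays. The differences of SCP51 from SCP58 and from the parent were -0.41 ± 0.46 and -0.45 ± 0.46, and turned to 0.19 and 0.15 without that array. SCP58 differed from the parent by -0.04 ± 0.46.

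DSC2, desmocollin 2, pairs with DSG2, desmoglein 2, in the desmosomes of simple epithelia. On the brightest DSC2 probe set, 226817_at, SCP51 read 198, 175 and 161, the parent 268, 353 and 331, and SCP58 295, 386 and 444. SCP51 was below both other lines on every array, while the parent and SCP58 overlapped. The differences were -1.06 ± 0.18 for SCP51 against SCP58, -0.83 ± 0.18 for SCP51 against the parent and 0.23 ± 0.18 for SCP58 against the parent. All 4 DSC2 probe sets were lower on average in SCP51 than in either other line. The second, 204751_x_at, read 129, 143 and 109.7 in SCP51, 163, 246 and 196 in the parent and 135, 256 and 296 in SCP58. On it SCP51 stayed apart from the parent but overlapped SCP58, with differences of -0.78 ± 0.29 and -0.66 ± 0.29 from SCP58 and the parent. The dim probe sets 204750_s_at and 231033_at, never above the array median, gave -0.65 and -0.56 against SCP58 and -0.17 and -0.51 against the parent.

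DSG2 separated the lines more narrowly and with less scatter. On 217901_at SCP51 read 1238, 1290.3 and 1295, the parent 1349, 1377 and 1362, and SCP58 1507, 1459.5 and 1607. No line overlapped another, in the order SCP51, parent, SCP58 from low to high, although the steps were -0.26 ± 0.08 for SCP51 against SCP58, -0.10 ± 0.08 for SCP51 against the parent and 0.16 ± 0.08 for SCP58 against the parent. After quantile normalization the first of these was -0.19 and the second -0.02. The second probe set, 1553105_s_at, did not separate the lines: it read 441, 559 and 397 in SCP51, 443, 530.4 and 473 in the parent, and 333, 574 and 710.1 in SCP58. The correlation of both probe sets over the 9 arrays was 0.34.

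**Figure D4:**
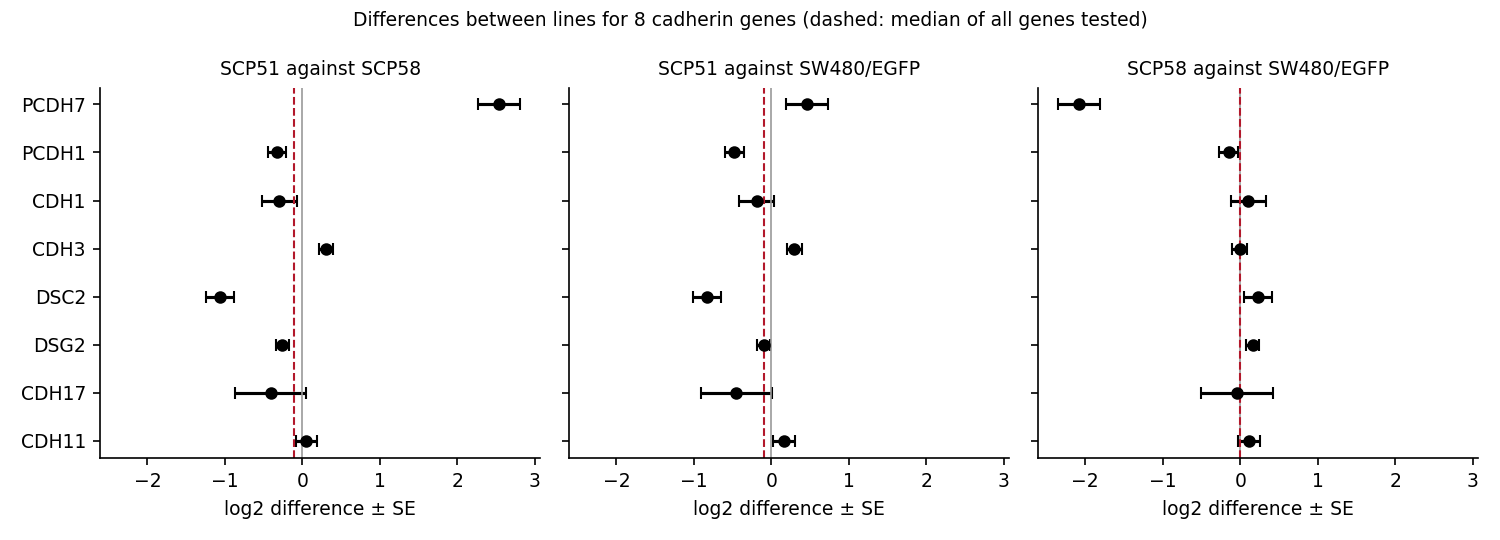
The log2 difference (± SE, n = 3 arrays per line) of the 8 measured cadherin genes in the 3 comparisons, with 0 as a grey line and the median of all 13598 genes tested as a dashed line. PCDH7 stands at 2.53, 0.46 and -2.08, and DSC2 at -1.06, -0.83 and 0.23.

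The members' counts are given beside those of all genes, and nothing is read from them, because the members were chosen on these comparisons. Between SCP51 and SCP58, 2 of the 8 measured members were called by limma at an adjusted p under 0.05 over all 13598 genes, PCDH7 higher and DSC2 lower, against 4.08% of all genes (1.48% higher and 2.6% lower). Between SCP51 and the parent none of the 8 was called by limma, against 2.96% of all genes (1.38% higher and 1.58% lower), and 3 had an unadjusted p under 0.05. Over all genes, an unadjusted p under 0.05 was reached by 21.3% between SCP51 and SCP58, 19.6% between SCP51 and the parent and 8.6% between SCP58 and the parent, the background for each such count given here. Between SCP58 and the parent 1 was called, PCDH7, lower, against 0.14% of all genes in either direction and 0.0735% lower. The alternatives refit the arrays on which the members were chosen, so a call kept in them is no test of a member. The PCDH7 call between SCP51 and SCP58 was kept in all 16 alternatives. The DSC2 call was lost when its probe sets were averaged, and when SCP51 replicate 2 or either of SCP58 replicates 2 and 3 was left out. The call of PCDH7 against the parent was lost without SCP51 replicate 2 or 3, parent replicate 1 or 3, or any 1 SCP58 array. Without SCP51 replicate 1, or without SCP58 replicate 1, DSC2 was also called lower in SCP51 than in the parent. Array weights added calls for CDH3, DSC2 and PCDH1. With the weights, 3 members were called between SCP51 and SCP58 and 2 between SCP51 and the parent. The calls over all 13598 genes rose as well, from 555 to 1527 and from 402 to 1356 in these comparisons.

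Groups of arrays did not overlap for 5 of the 8 genes between SCP51 and SCP58, with PCDH7 and CDH3 higher and PCDH1, DSC2 and DSG2 lower in SCP51. This compares with 25.1% of all genes (7.91% higher and 17.2% lower). Between SCP51 and the parent 4 did not overlap, CDH3 higher and PCDH1, DSC2 and DSG2 lower, against 28.1% (9.5% higher and 18.6% lower). Between SCP58 and the parent 2 did not overlap, DSG2 higher and PCDH7 lower, against 17% (9.41% higher and 7.58% lower). Of the 12 probe sets that passed the filter, 6, 5 and 3 did not overlap in these comparisons, against 23.2%, 26.1% and 16.3% of all probe sets kept. The members' median difference was -0.28 between SCP51 and SCP58, -0.14 between SCP51 and the parent and 0.05 between SCP58 and the parent. The same medians over all genes were -0.11, -0.10 and 0.00, and 65.0% of all genes were below 0 between SCP51 and SCP58. After quantile normalization the medians over all genes between SCP51 and the other lines were -0.05 and -0.04. With it the lower values of DSC2, PCDH1, CDH1 and DSG2 in SCP51 lay nearer 0 in both comparisons: against the parent DSG2 went from -0.10 to -0.02, CDH1 from -0.19 to -0.11 and DSC2 from -0.83 to -0.75. Those of CDH17 did not move towards 0. The comparisons share arrays with each other.

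Over the 9 arrays the log2 signals of PCDH7 and DSG2 were correlated with r = -0.84, those of PCDH7 and DSC2 with r = -0.73, and those of DSC2 and DSG2 with r = 0.82. For CDH1 and CDH17, r was 0.78, with SCP51 replicate 1 lowest in both. These values describe 3 lines on shared arrays and include the differences between lines. By the same measure over all 13598 genes, the genes most like PCDH7 were SERPINH1 (r = 0.99), a collagen chaperone, PCGF3 (0.98), a Polycomb subunit, CHORDC1 (0.97), a partner of the chaperone HSP90, ZBED2 (0.96), a zinc finger protein, and DPH2 (0.96), an enzyme of diphthamide synthesis. The least like were RHBDF1 (-0.98), a rhomboid-like protein, SUMO3 (-0.97), a ubiquitin-like modifier, and IFIT1 (-0.96), an interferon-induced gene. After quantile normalization 3 of the 5, SERPINH1, PCGF3 and ZBED2, and 0 of the last 3 were named again.

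For the other measured members the 2 most alike genes were these. DSC2 was nearest KBTBD11 and TPD52 (r = 0.99 and 0.98), and DSG2 was nearest MARK1 and NALT1 (both 0.97). CDH3 was nearest UBE3B and MYH9 (both 0.97), PCDH1 was nearest TRIM72 and TMEM218 (0.99 and 0.98), and CDH1 was nearest UBR4 and DGAT1 (0.96 and 0.95). CDH17 was nearest PITX1-AS1 and GLDC (0.997 and 0.987), and CDH11 was nearest ABCC11 and GAST (0.89 and 0.88). With the mean of each line removed, the values for CDH17 were 0.997 and 0.989, so they also held between arrays within lines. CDH17 was far lowest on SCP51 replicate 1, and the part of that array in its values was not tested. The other members kept high values too with line means removed. They ran from 0.79 (MARK1 for DSG2) to 0.97 (TRIM72 for PCDH1). For the genes most like PCDH7 they ran from 0.57 (ZBED2) to 0.92 (PCGF3). After quantile normalization both genes were named again for CDH3, 1 of 2 for CDH1 (UBR4), CDH11 (GAST) and CDH17 (PITX1-AS1), and none for DSC2, DSG2 and PCDH1.

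Genes beside PCDH7 on chromosome 4 had smaller differences between SCP58 and the other lines. Of the 10 nearest measured genes in RefSeq order, limma called none in any comparison (3, 2 and 3 at an unadjusted p under 0.05), and their median differences were -0.14 for SCP51 against SCP58, -0.11 for SCP51 against the parent and -0.03 for SCP58 against the parent. Between SCP51 and SCP58 they ran from -0.65 to 0.81, against 2.53 for PCDH7. For DSC2 on chromosome 18, whose 10 neighbours include DSG2, limma called none (2, 3 and 1 at an unadjusted p under 0.05) and the median was -0.10 between SCP51 and SCP58. These neighbours, too, were looked at after the values were seen. For DSG2 the 1 called neighbour was DSC2, and for PCDH1 and CDH11 limma called none in any comparison (4, 3 and 0, and 2, 1 and 0, at an unadjusted p under 0.05).

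Beside CDH1 and CDH3, which share most neighbours, 1 gene was called. HAS3, a hyaluronan synthase, stood at -2.78 for SCP51 against the parent (limma adjusted p = 0.000852) and -2.25 for SCP58 against the parent (0.00884). The first call was kept in all alternatives run for it, and the second was lost without parent replicates 1 or 3 or SCP58 replicate 3. Around CDH17 on chromosome 8, the 10 neighbours had medians of -0.68 for SCP51 against SCP58 and -0.43 for SCP51 against the parent. Of these neighbours, 9 and 10 were below 0, against 65.0% and 64.0% of all genes. CDH17 itself stood at -0.41 ± 0.46 and -0.45 ± 0.46, and at 0.19 and 0.15 without SCP51 replicate 1. Among the neighbours, GEM, VIRMA and ESRP1 were called lower in both comparisons, and CIBAR1 against the parent. The 3 calls against SCP58 came to 1 when SCP51 replicate 2 or either of SCP58 replicates 2 and 3 was left out. The 4 calls against the parent came to 0 to 2 when any 1 array but SCP51 replicate 1 was left out, with 0 by limma without parent replicates 2 or 3. They came to 2 with no filter, after quantile normalization and on averaging probe sets. With the replicate number in the fit as a block, 1 call against SCP58 (VIRMA) and 0 by limma against the parent were left.

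**Figure D5:**
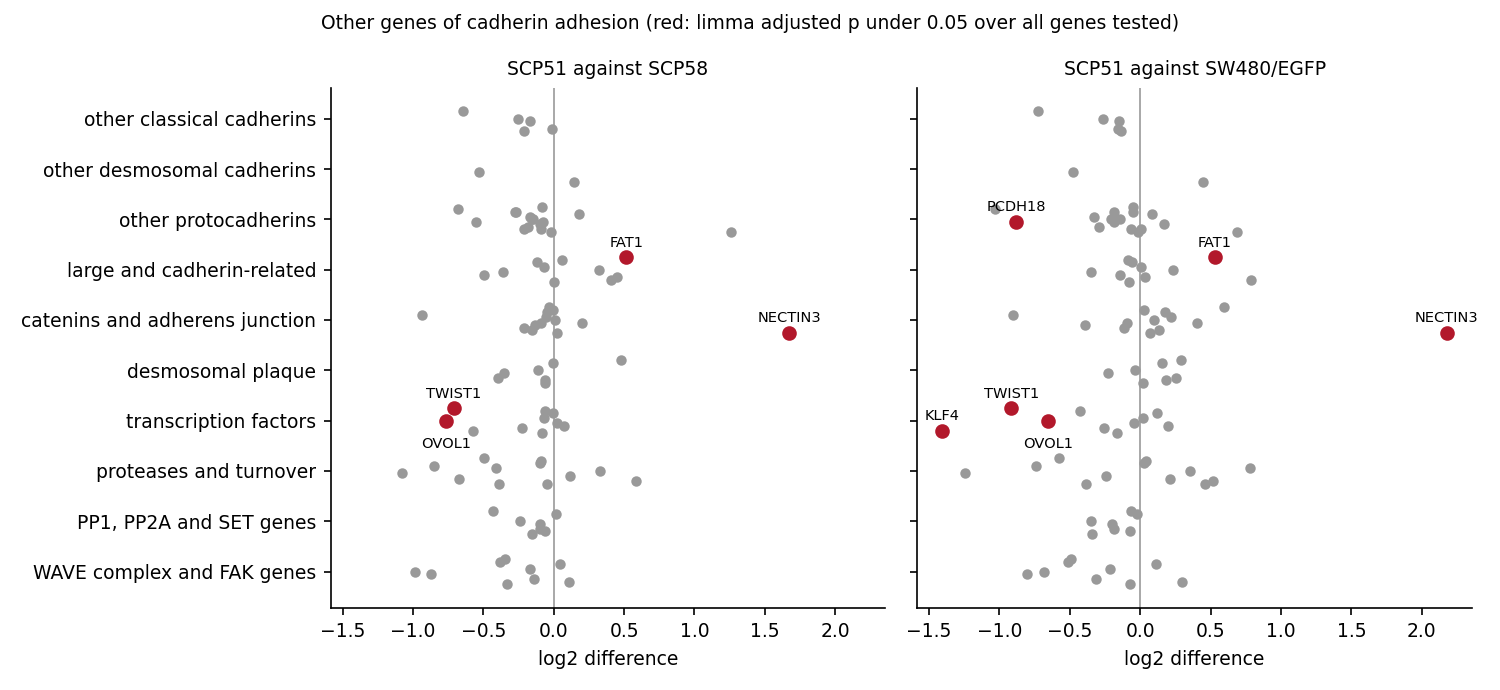
The log2 difference of each measured gene in 10 lists of cadherin-related genes, for SCP51 against SCP58 (left) and SCP51 against SW480/EGFP (right), with genes called by limma in red. FAT1 and NECTIN3 stand higher in SCP51 in both panels, TWIST1 and OVOL1 lower in both, and PCDH18 and KLF4 lower against the parent.

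The remaining cadherins were mostly dim. Of 17 other classical and type II cadherins, 15 had a probe set and 5 were measured. None was called by limma in any comparison, and 1, 1 and 0 had an unadjusted p under 0.05 in SCP51 against SCP58, SCP51 against the parent and SCP58 against the parent. All 5 were below 0 for SCP51 against both other lines, with medians of -0.21 and -0.16. Of all genes, 65.0% and 64.0% were below 0 in these comparisons, with medians of -0.11 and -0.10. The brightest were CDH22 at -0.17 ± 0.12 and -0.15 ± 0.12, and CDH24 at -0.64 ± 0.22 and -0.72 ± 0.22, against SCP58 and the parent. A second CDH24 probe set went the other way, with 104, 96.7 and 106 in SCP51 against 72.4 to 92.6 in the other lines. Of the 5 other desmosomal cadherins 2 were measured and none was called by limma (0, 1 and 1 at an unadjusted p under 0.05). DSC3, a desmocollin of stratified epithelia, differed by 0.14 ± 0.12 from SCP58 and 0.45 ± 0.12 from the parent, and its partner DSG3 by -0.53 ± 0.30 and -0.48 ± 0.30.

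Of 63 other protocadherins, 42 had a probe set and 16 were measured, and 1 was called. On the probe set that stands for PCDH18, the signal was lower in SCP51 than in the parent. It read 28.9, 31.3 and 36.3 in SCP51, 68.2, 52.0 and 58 in the parent and 37.6, 49.7 and 55.4 in SCP58, and SCP51 was below both other lines throughout. All 3 SCP51 arrays were under their array medians, so the gene passed the filter only through the lines where it was higher, and the size of a difference from so dim a signal is uncertain. The difference was -0.88 ± 0.18 from the parent (limma adjusted p = 0.0408), and -0.51 with 32 added before log2. The call was lost without SCP51 replicate 2, parent replicates 1, 2 or 3, or SCP58 replicate 2 (adjusted p = 0.125, 0.147, 0.0804, 0.129 and 0.0702), after quantile normalization (0.052) and with every probe set tested by itself (0.0515). Against SCP58 it was -0.55 ± 0.18 (limma adjusted p = 0.123). A second PCDH18 probe set, never above the array median, showed no such difference (0.01 against SCP58 and -0.01 against the parent). None of the 16 was called by limma between SCP51 and SCP58 or between SCP58 and the parent (1 and 0 at an unadjusted p under 0.05). Between SCP51 and SCP58, 14 were below 0, against 65.0% of all genes. PCDH12, chosen after its values were seen, had the largest positive difference, 1.26 ± 0.78 between SCP51 and SCP58, and read 120.4, 22.6 and 171 in SCP51 and 123, 31.2 and 29.2 in the parent, so that 1 array of each split from the rest of its line.

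Among 19 large and cadherin-related genes, 10 were measured and FAT1 was called. FAT1, a giant cadherin that acts on actin and on growth control, read 3587, 4417 and 4151 in SCP51, 2786, 2688 and 2913 in the parent, and 2623, 2720.4 and 3147 in SCP58. SCP51 was above both other lines on every array. The difference was 0.52 ± 0.10 from SCP58 (limma adjusted p = 0.0305) and 0.53 ± 0.10 from the parent (0.0311), against 0.01 ± 0.10 between SCP58 and the parent. The call against SCP58 was lost without SCP51 replicates 2 or 3 (adjusted p = 0.104 and 0.0595), parent replicates 1 or 3 (0.0583 and 0.061) or SCP58 replicates 1 or 2 (0.0784 and 0.124). The call against the parent was lost without SCP51 replicates 2 or 3 (0.109 and 0.0601), any 1 parent array (0.113, 0.117 and 0.0946) or SCP58 replicate 2 (0.058). None of the 10 was called between SCP58 and the parent by limma, with 1 at an unadjusted p under 0.05.

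Of 18 genes of catenins and adherens junction partners, 13 were measured and NECTIN3 was called. Nectins are immunoglobulin-like adhesion proteins that join cadherins in adherens junctions through afadin. The probe set that stands for NECTIN3 read 302, 592 and 576 in SCP51, 138, 73.0 and 111 in the parent, and 185, 98.2 and 175 in SCP58, and SCP51 did not overlap the others. The difference was 1.67 ± 0.36 from SCP58 (limma adjusted p = 0.0403) and 2.18 ± 0.36 from the parent (0.0175). A second NECTIN3 probe set read 98.7, 281 and 221 in SCP51 and 50.5 to 145 in the other lines, so SCP51 replicate 1 lay among them. With the mean of both, the differences were 1.25 and 1.65 and neither was called (0.129 and 0.0749).

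The NECTIN3 call against SCP58 was lost without SCP51 replicates 2 or 3 (adjusted p = 0.13 and 0.0786), parent replicates 1 or 3 (0.0586 and 0.0789) or any 1 SCP58 array (0.0658, 0.144 and 0.0929), and with no filter (0.0556). The NECTIN3 call against the parent was lost without SCP51 replicate 2 (0.0688) and parent replicates 2 or 3 (0.0704 and 0.0716). The catenins themselves, named here for their role after their values were seen, were not called. CTNNB1, beta-catenin, differed by 0.01 ± 0.11 from SCP58 and 0.10 ± 0.11 from the parent. CTNNA1, alpha-catenin, differed by -0.05 ± 0.21 and 0.18 ± 0.21, and JUP, the plakoglobin shared with desmosomes, by -0.06 ± 0.16 and 0.22 ± 0.16. None of the 13 was called between SCP58 and the parent by limma, with 2 at an unadjusted p under 0.05.

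The desmosomal plaque, which holds DSC2 and DSG2 on their inner side, was measured for 7 of 8 genes without a call by limma in any comparison (1, 0 and 1 at an unadjusted p under 0.05). Its median difference was -0.06 for SCP51 against SCP58 and 0.15 for SCP51 against the parent, beside -1.06 and -0.83 for DSC2. PERP, a desmosomal membrane protein, stood at -0.01 ± 0.08 and 0.15 ± 0.08, and DSP, desmoplakin, at -0.06 ± 0.12 and 0.02 ± 0.12. Of the 3 other PERP probe sets that passed the filter, a dimmer one was lower in SCP51 than in SCP58 without overlap, at -0.46 ± 0.13, and stood at -0.13 ± 0.13 against the parent; the others stood at -0.04 ± 0.11 and 0.06 ± 0.13 against SCP58.

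Of 17 transcription factors that repress or activate cadherin genes, 10 were measured. Between SCP51 and SCP58, 2 were called by limma, both lower in SCP51, against 2.6% of all genes called lower. Between SCP51 and the parent 3 were called, again lower, against 1.58%. At an unadjusted p under 0.05 there were 2 and 4. The list was chosen with earlier results of these data known, so nothing is read from these counts. OVOL1, a zinc finger repressor that favours the epithelial state, read 161, 158 and 170.1 in SCP51, 244, 269 and 257 in the parent, and 289.6, 276 and 264 in SCP58, without overlap between SCP51 and the others. The differences were -0.76 ± 0.10 (limma adjusted p = 0.0085) and -0.65 ± 0.10 (0.0143) from SCP58 and the parent. A second OVOL1 probe set read 48.3 to 67.0 over all lines, and with the mean of both the differences were -0.38 (0.0566) and -0.42. The call against the parent was lost without SCP51 replicate 2 (0.0611) or any 1 parent array (0.054, 0.0619 and 0.0747).

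TWIST1, a basic helix-loop-helix factor that binds E-boxes and represses CDH1, read 61.4, 64.3 and 70.1 in SCP51, 138, 108 and 124 in the parent, and 124, 91.5 and 107 in SCP58. SCP51 was below both lines throughout, with differences of -0.71 ± 0.14 (limma adjusted p = 0.035) from SCP58 and -0.91 ± 0.14 (0.0144) from the parent. The call against SCP58 was lost without SCP51 replicate 2 (0.112), parent replicates 1 or 3 (0.0507 and 0.0723), any 1 SCP58 array (0.0784, 0.0583 and 0.103) and with no filter (0.0525). The call against the parent was lost without SCP51 replicate 2 (0.0592) and parent replicates 1 or 3 (0.066 and 0.0716). KLF4, a zinc finger factor of differentiated gut epithelium that activates CDH1, read 162, 119.5 and 125 in SCP51, 257, 576 and 305 in the parent, and 187, 215 and 198 in SCP58. Every SCP51 array was below the other lines, and the parent varied most. The difference of SCP51 from the parent was -1.40 ± 0.28 (limma adjusted p = 0.0373).

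The KLF4 call was lost without SCP51 replicates 2 or 3 (adjusted p = 0.127 and 0.0676), parent replicate 3 (0.0932) or any 1 SCP58 array (0.0599, 0.0676 and 0.0673), on averaging its probe sets (0.0674) and, narrowly, with no filter (0.05) and after quantile normalization (0.0503). The repressors that bind CACCTG were not called, as seen after their values were known. SNAI1 stood at -0.22 ± 0.13 and -0.26 ± 0.13 for SCP51 against SCP58 and the parent, ZEB1 at 0.07 ± 0.11 and 0.20 ± 0.11, and SNAI2 and ZEB2 did not pass the filter. None of the 10 factors was called between SCP58 and the parent by limma, with 2 at an unadjusted p under 0.05.

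Genes for the shedding and turnover of cadherins were measured for 12 of 14 and none was called by limma (4, 6 and 3 at an unadjusted p under 0.05 in the 3 comparisons). ADAM9 stood at 0.58 ± 0.20 and 0.52 ± 0.20 for SCP51 against SCP58 and the parent, and ADAM10, the sheddase of E-cadherin, at -0.05 ± 0.13 and 0.46 ± 0.13. The phosphatase and SET genes, some of whose products bind the PCDH7 tail, were all measured, 7 of 7, without a call by limma (1, 1 and 0 at an unadjusted p under 0.05). SET itself stood at -0.10 ± 0.16 and -0.19 ± 0.16, and PPP2CB, a catalytic subunit of PP2A, at -0.06 ± 0.13 and -0.07 ± 0.13. A second SET probe set stood at -0.76 ± 0.65 and -0.92 ± 0.65, and read 269 on SCP51 replicate 1 against 1592 to 2141 on the other 8 arrays. The genes of the WAVE actin-regulating complex and of the kinases FAK and PYK2, through which other protocadherins act, were measured for 9 of 11, also without a call by limma (3, 3 and 0 at an unadjusted p under 0.05). CYFIP1 stood at 0.04 ± 0.15 and 0.11 ± 0.15. BRK1, a small WAVE subunit, stood at -0.87 ± 0.54 and -0.81 ± 0.54, and read 259 on SCP51 replicate 1 against 1134 to 1445 on the other 8 arrays. A second BRK1 probe set went the other way, at 0.28 ± 0.16 and 0.03 ± 0.16, with its highest signal, 264, on that same array.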

How the data were processed

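The deposited table holds 1 linear intensity per probe set and array, which the authors produced in GCOS 1.4 (per the submitters' processing notes). How background, scaling and probe summary were done is not stated in the labels used. From the deposited intensities, values under 1 (514) were set to 1 and log2 was taken. The 62 control probe sets were left out, and 29166 of 54675 passed the filter (above the array median on at least 3 of 9 arrays). Symbols were updated through a RefSeq table (GRCh38.p14), where 99.9% of single Entrez identifiers matched. The brightest probe set with 1 symbol stood for each gene, which gave 13598 genes.

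A limma 3.58.1 fit (R 4.3.3) with 1 mean per line, over all 9 arrays and with an intensity trend, gave differences, and genes were called at a Benjamini-Hochberg adjusted p under 0.05 over all genes. Every adjusted p comes from limma and sets a difference between lines against the spread of the arrays within lines. With 1 clone per metastatic class, it does not cover the spread between clones of a class. The labels do not say how separate the biological replicates were. The number of arrays limits the precision. The script was tested on simulated data.

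Members and lists were chosen with earlier results of these data known. Named were all members, up to 4 called genes per list and comparison, up to 2 brightest genes of a list without calls, and the genes closest to each member by Pearson r. Alternatives were no filter, quantile normalization, 32 added before log2, averaged probe sets, every probe set by itself, array weights, the replicate number as a block, and each array left out. Figures used matplotlib 3.10.9.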

Additional observations from a re-analysis of the deposited data

How the results depend on the processing

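The main fit called 555, 402 and 19 genes for SCP51 against SCP58, SCP51 against the parent and SCP58 against the parent. Array weights gave 1527, 1356 and 1351, and every probe set by itself gave 976 for the first and 39 for the last. Quantile normalization moved the split of higher and lower calls from 201 and 354 to 319 and 302 for SCP51 against SCP58, and from 187 and 215 to 246 and 169 for SCP51 against the parent. Leaving out 1 array gave 137 to 1189, 122 to 724 and 0 to 75 calls; 0 by limma was without parent replicate 1, where 658 genes had an unadjusted p under 0.05. The labels do not say whether the replicate numbers pair the arrays. Of 9 pairs with the same number, 1 had a correlation of deviations over 0.1 (range -0.22 to 0.13). Pairs with different numbers ran from -0.12 to 0.12. Deviations from a mean of 3 arrays sum to 0 within each line, so these correlations cannot settle whether the arrays are paired. With the replicate number as a block the calls were 210, 167 and 6, the block ended the calls of DSC2 between SCP51 and SCP58 and of PCDH7 between SCP58 and the parent, and it ended 8 of the 10 calls of list genes (adjusted p = 0.0524 to 0.0894). Of 375 values for the members under the alternatives, 362 kept their direction, and the 13 others belonged to CDH1, CDH3 between SCP58 and the parent, CDH11 and CDH17. All 160 values of the called list genes kept their direction, and 64 lost the call. Many of these values could not change, so the counts of kept directions overstate what the alternatives tried. PCDH7 between SCP51 and SCP58 stayed at 2.53 with no filter, the block, every probe set by itself, or any 1 parent array left out. Dim probe sets limit what can be said of CDH2, CDH11, CDH17 and most other cadherins, and no detection calls were used here.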
